A study of Mus musculus with 9 samples.

Results

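The genes of the Arp2/3 complex and the beta-actin gene *Actb* were followed in liver macrophages of mouse embryos with or without *Mrc1Cre*, which targets the floxed gene of the phosphate exporter XPR1. The members were the genes whose Ensembl identifier carries the symbol of *Actb* or of one of the 9 subunit genes of the complex, and all 10 were found among the 13708 genes of the table. They were chosen by the known rise of *Actr3* in these same samples, and the question was whether the rest of its complex rose with it. The values of *Actr3* are therefore given as a description, without a test.

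The Arp2/3 complex binds the side of an actin filament and starts a new filament as a branch, which gives the branched networks behind lamellipodia, phagocytic cups and moving endosomes. Its actin-related proteins ARP2 and ARP3 form the base of the new filament, and the subunits ARPC1 to ARPC5 hold them together and bind the mother filament. In mice, ARPC1 is made from *Arpc1a* or *Arpc1b* and ARPC5 from *Arpc5* or *Arpc5l*. *Arpc1b* is the form that predominates in blood cells, and macrophages use the complex to crawl and to engulf their targets.

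The samples were macrophages from livers at E15.5, gated as CD45+, F4/80hi and CD11blow, and measured by bulk RNA-seq. The 5 samples with the deletion carried a heterozygous *Mrc1Cre* and a floxed *Xpr1* on both alleles (Mrc1Cre Xpr1fl/fl, n = 5), and the controls carried the same floxed alleles without Cre (Xpr1fl/fl, n = 4), all on a C57BL/6JRj background. Cre recombinase in this line is expressed from the *Mrc1* gene, which encodes CD206, so that it is also active in other cells that express CD206, such as liver sinusoidal endothelial cells. The floxed part of *Xpr1* is exon 2, and the sorted gate held macrophages with high and with low Tim4. The labels call the samples separate but do not say whether each came from its own embryo, so p-values measure the spread between these samples.

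*Xpr1* itself had 1074 to 1285 normalized counts in Mrc1Cre Xpr1fl/fl samples and 1781 to 2239 in Xpr1fl/fl samples, which did not overlap. All 10 macrophage markers were in the table, 2 called higher and 3 lower, and their sum was 216000 to 234800 normalized counts against 218500 to 263200. The most abundant, *Csf1r*, the receptor for colony-stimulating factor 1, had 84995 ± 6385 normalized counts against 77102 ± 5259 (SD). The 12 erythroid markers were all called lower in Mrc1Cre Xpr1fl/fl samples, where their sum was 0.324 to 1.09% of all normalized counts against 1.48 to 2.31% in controls. Mitochondrial transcripts took 2.26 to 3.71% of normalized counts against 3.46 to 4.90%, with the highest share of the Mrc1Cre Xpr1fl/fl samples in sample 5. All 8 hepatocyte markers (34030 to 43720 normalized counts in sum against 57170 to 97330) and 6 of 8 endothelial markers (5935 to 8174 against 9753 to 13200) were also lower. So were 4 of 9 granulocyte markers (5065 to 18230 against 9179 to 54630), 5 of 8 megakaryocyte markers (849.7 to 1209 against 2418 to 2970) and 5 of 8 stromal markers (628.3 to 1114 against 1924 to 5728). Of 6 monocyte markers 1 was higher and 3 were lower, and their sum was 7401 to 9976 against 5386 to 8278. The most abundant of them, *Plac8*, was the 1 called higher, with 5105 to 7603 normalized counts against 2731 to 3819 (log2 fold change 0.91, limma, adjusted p = 0.000292). None of the markers was missing from the table, and only *Gp1bb*, a platelet gene, was listed at 0 in any sample. The part of these markers and of the mitochondrial share in the results on the actin genes was not tested, and in bulk samples fewer cells of a type and less RNA per cell cannot be told apart. The column names of the table begin with 3 dates, whose meaning is not given in the sources used here. Xpr1fl/fl samples 1 to 3 and Mrc1Cre Xpr1fl/fl sample 5 have the earliest date, Xpr1fl/fl sample 4 the next, and Mrc1Cre Xpr1fl/fl samples 1 to 4 the latest, so that date and genotype can be only partly told apart. The later dates hold a single genotype each. With date as a term, the genotype estimate therefore rests only on Mrc1Cre Xpr1fl/fl sample 5 against Xpr1fl/fl samples 1 to 3. A call lost in that fit does not show an effect of the date. The total was 26942921 to 28309443 normalized counts per sample, which the normalization sets, and the absolute depth is unknown.

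The rise of *Actr3* was shared by some of its partners and not by others. Of the 9 other members, 4 were called higher in Mrc1Cre Xpr1fl/fl samples (*Actr2*, *Arpc1b*, *Arpc2* and *Arpc5*), 2 were called lower by a small margin (*Arpc1a* and *Arpc3*), and 3 were not called (*Arpc4*, *Arpc5l* and *Actb*). A call is an adjusted p under 0.05 by limma over all 13594 genes tested, and such calls were common: 43.1% of all genes were called, 21.5% higher and 21.6% lower (14.6% and 27.5% with each sample scaled to its 75th percentile). The median log2 fold change was 0.09 over these 9 members and 0.00 over all genes tested. For the 4 partners called higher every sample with the deletion was above every control, and for the 2 called lower every one was below, a gap that 16.6% of all genes had upward and 17.5% downward, 34.1% in all. All 10 members passed the filter on low values.

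**Figure D1:**
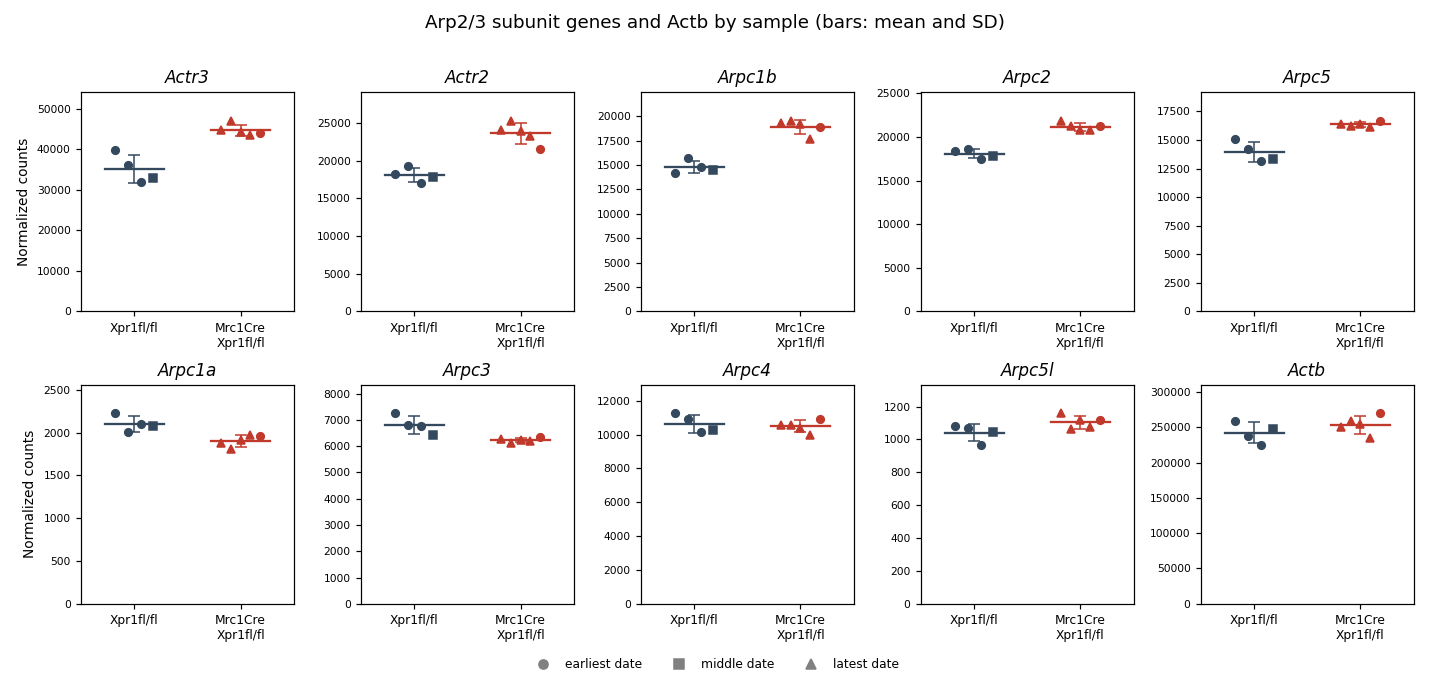
Normalized counts (vertical axes, each from 0) of the 10 genes in each sample, with the mean and SD of each genotype as bars and the date in the column name as the point's shape. For *Actr3*, *Actr2*, *Arpc1b*, *Arpc2* and *Arpc5* every Mrc1Cre Xpr1fl/fl sample is above every control, for *Arpc1a* and *Arpc3* every one is below, and for *Arpc4*, *Arpc5l* and *Actb* the genotypes overlap.

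*Actr3*, which encodes ARP3, had 44829, 46981, 44147, 43508 and 44064 normalized counts in Mrc1Cre Xpr1fl/fl samples 1 to 5 and 39689, 36113, 31865 and 32891 in Xpr1fl/fl samples 1 to 4. The samples with the deletion lay close together and above every control, while the controls were spread more widely, with a coefficient of variation of 10.1% against 3.03%. The means were 44706 ± 1356 and 35139 ± 3532 (SD), a difference of 27.2%, or 0.35 on the log2 scale. In the samples of the earliest date, Mrc1Cre Xpr1fl/fl sample 5 was above Xpr1fl/fl samples 1 to 3, and with date as a term the log2 difference was 0.30.

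Some reads of *Actr3* could belong to either of 2 processed pseudogenes. *Actr3* lies on the minus strand of chromosome 1 (chr1:125320633-125363637, GRCm39), and *Gm15899* on the minus strand of chromosome 8 (chr8:123410341-123410578). The 238 bases of *Gm15899* are identical to bases 169 to 406 of the 1254 coding bases of *Actr3*, in exons 3, 4 and 5. The shared sequence is shown because salmon could assign such reads to either gene, with the part of exon 4 in capitals and the parts of exons 3 and 5 on either side.

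Gm15899: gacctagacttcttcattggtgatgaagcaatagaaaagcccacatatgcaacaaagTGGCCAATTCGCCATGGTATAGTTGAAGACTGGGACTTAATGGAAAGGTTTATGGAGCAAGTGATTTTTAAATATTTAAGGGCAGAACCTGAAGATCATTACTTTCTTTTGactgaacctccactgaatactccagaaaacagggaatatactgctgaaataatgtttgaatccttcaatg

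Of 36 annotated *Actr3* transcripts, 21 hold this sequence whole. *Gm15899* had 74.9, 119.7, 183.2, 86.7 and 73.3 normalized counts in Mrc1Cre Xpr1fl/fl samples 1 to 5, was listed at 0 in Xpr1fl/fl samples 1 to 3 and had 32.7 in Xpr1fl/fl sample 4. The other pseudogene, *Actr3-ps*, is 98.8% identical to *Actr3* over 2348 bases and had 158.6 to 308.2 normalized counts against 128.4 to 192.8, which overlap. Both were small beside *Actr3*, and the sum of the 3 genes gave a log2 difference of 0.36.

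*Actr2* encodes ARP2, the other actin-related subunit, on the minus strand of chromosome 11 (chr11:20012300-20063049). It had 24053, 25271, 23925, 23314 and 21528 normalized counts in Mrc1Cre Xpr1fl/fl samples 1 to 5 and 18218, 19252, 16978 and 17851 in Xpr1fl/fl samples 1 to 4. The genotypes did not overlap, and the lowest of the Mrc1Cre Xpr1fl/fl samples was sample 5, the one with the earliest date and, at 1.09%, the highest erythroid share of its group. *Actr2* rose by 0.39 on the log2 scale (SE 0.06, 95% interval 0.26 to 0.51, limma, adjusted p = 0.000415). With date as a term the difference was 0.25 and was not called (limma, adjusted p = 0.118).

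*Arpc1b* encodes the ARPC1 form typical of blood cells, a beta-propeller subunit that contacts nucleation promoting factors. Its normalized counts were 19295, 19532, 19264, 17696 and 18875 in Mrc1Cre Xpr1fl/fl samples 1 to 5 and 14210, 15698, 14802 and 14492 in Xpr1fl/fl samples 1 to 4. The lowest sample with the deletion was above the highest control. Within the earliest date, the only comparison behind the estimate with date as a term, sample 5 was above Xpr1fl/fl samples 1 to 3. The log2 fold change was 0.36 (SE 0.05, 95% interval 0.25 to 0.47, limma, adjusted p = 0.000257). *Arpc1b* was the only member still called with date as a term, at 0.34 (limma, adjusted p = 0.0427), in a fit that called 4.24% of all genes higher and 4.54% lower.

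*Arpc2* and *Arpc5* rose less. *Arpc2*, which encodes a core subunit that binds the mother filament, had 21853, 21323, 20795, 20770 and 21233 normalized counts in Mrc1Cre Xpr1fl/fl samples 1 to 5 against 18400, 18584, 17490 and 17836 in controls. *Arpc5*, whose product tethers ARP2 to the rest, had 16373, 16242, 16396, 16109 and 16665 against 15094, 14243, 13113 and 13317. For both genes the Mrc1Cre Xpr1fl/fl samples formed a tight group above the controls. The log2 fold change was 0.23 for *Arpc2* (SE 0.04, 95% interval 0.13 to 0.33, limma, adjusted p = 0.00175). It was also 0.23 for *Arpc5* (SE 0.05, 95% interval 0.12 to 0.34, limma, adjusted p = 0.00386). With date as a term the estimates were 0.23 and 0.24 but neither was called (limma, adjusted p = 0.101 and 0.119). The call on *Arpc5* also depended on the scaling, since at the 75th percentile of each sample its log2 fold change was 0.15 (limma, adjusted p = 0.0508).

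*Arpc1a* and *Arpc3* went the other way. *Arpc1a*, the broadly expressed alternative to *Arpc1b*, had 1875, 1802, 1909, 1973 and 1965 normalized counts in Mrc1Cre Xpr1fl/fl samples 1 to 5 and 2225, 2005, 2101 and 2076 in controls. *Arpc3*, a small peripheral subunit next to ARP3, had 6275, 6141, 6251, 6213 and 6351 against 7254, 6802, 6754 and 6408. Every sample with the deletion was below every control for both genes, but the gap was narrow. *Arpc1a* fell by 0.14 on the log2 scale (SE 0.05, limma, adjusted p = 0.0417) and *Arpc3* fell by 0.12 (SE 0.05, limma, adjusted p = 0.0483). Both calls were close to the threshold and were lost with date as a term, where the adjusted p by limma was 0.528 and 0.315. They were also lost in 6 and 7 of the 9 fits that left out 1 sample, among them those without Xpr1fl/fl sample 1, the highest sample for both genes (limma, adjusted p = 0.102 and 0.114).

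*Arpc4*, *Arpc5l* and *Actb* were not called. *Arpc4*, which pairs with ARPC2 in the core of the complex, had 9957 to 10935 normalized counts in Mrc1Cre Xpr1fl/fl samples and 10143 to 11254 in controls, or -0.02 on the log2 scale (95% interval -0.13 to 0.09, limma, adjusted p = 0.769). *Arpc5l*, the alternative to *Arpc5*, had 1061 to 1159 against 964.8 to 1084, or 0.09 on the log2 scale (95% interval -0.04 to 0.21, limma, adjusted p = 0.234). The interval of *Arpc4* lies below the estimates for *Arpc2* and *Arpc5*, whereas that of *Arpc5l* nearly reaches them.

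*Actb*, on the minus strand of chromosome 5 (chr5:142888870-142892509), was by far the most abundant member and made up 0.81 to 0.962% of all normalized counts. It had 250828, 258757, 253957, 234572 and 269795 normalized counts in Mrc1Cre Xpr1fl/fl samples 1 to 5 and 258963, 237407, 224928 and 248085 in controls. The genotypes overlapped over most of their range, with the lowest value in Xpr1fl/fl sample 3 and the highest in Mrc1Cre Xpr1fl/fl sample 5. The log2 fold change of 0.07 was not called (95% interval -0.10 to 0.24, limma, adjusted p = 0.523).

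**Figure D2:**
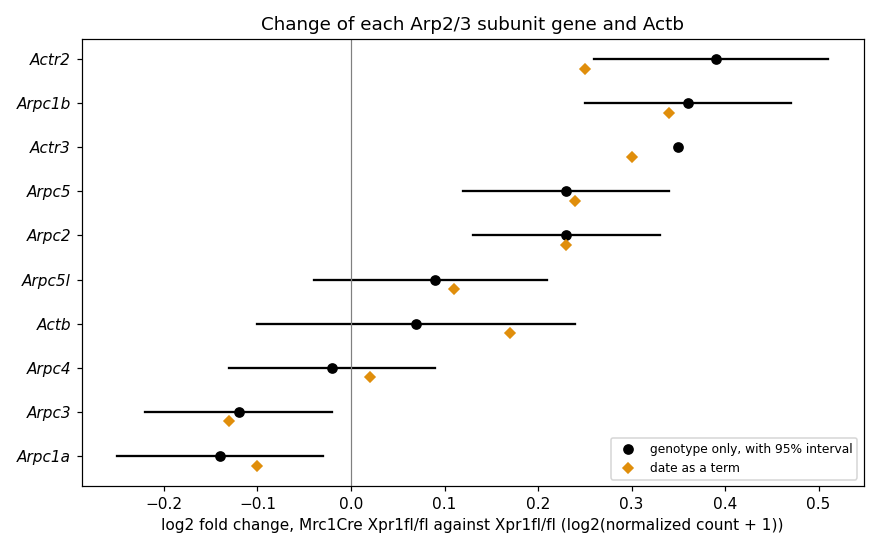
Log2 fold change of each gene, Mrc1Cre Xpr1fl/fl against Xpr1fl/fl, on the scale of log2(normalized count + 1), with the 95% interval (black, not drawn for *Actr3*, which chose the members) and the estimate with date as a term (orange). The estimates run from 0.39 for *Actr2* to -0.14 for *Arpc1a*, and adding the date moved *Actr2* to 0.25 and *Actb* from 0.07 to 0.17. Each orange estimate compares only Mrc1Cre Xpr1fl/fl sample 5 with Xpr1fl/fl samples 1 to 3.

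The subunits enter the complex in equal numbers, and their transcript levels were compared per kilobase of the canonical transcript, with the paralogs of ARPC1 and of ARPC5 summed. That length was 905 bases for *Arpc3* and 2287 for *Arpc4*. Which transcripts were expressed was not examined, so the order of the places can depend on this choice. In controls the order was ARPC2 (12880 ± 359 normalized counts per kilobase, SD), ARP3 (12000 ± 1210), ARPC1 (10600 ± 361), ARPC5 (8034 ± 508), ARPC3 (7519 ± 384), ARP2 (4938 ± 257) and ARPC4 (4653 ± 235). The ranges of mean ± SD overlapped for ARPC2 and ARP3, for ARP3 and ARPC1, for ARPC5 and ARPC3, and for ARP2 and ARPC4. These SDs ignore that the places were measured in the same samples, and ARPC4 was the lowest place in every control. The mean of ARPC1 was more than 1 SD below that of ARP3, though their ranges overlapped. In Mrc1Cre Xpr1fl/fl samples ARP3 (15270 ± 463) and ARPC2 (15100 ± 317) did not differ beyond their spread and led ARPC1 (13090 ± 429). ARPC5 (9342 ± 127), ARPC3 (6902 ± 85.4), ARP2 (6453 ± 374) and ARPC4 (4586 ± 156) followed, with ARPC3 and ARP2 within their spread of each other. *Actb* stood far above all of them, at 132100 ± 6680 against 126200 ± 7590 in controls.

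The levels for the 7 places in the complex were further apart in the samples with the deletion. The highest was 3.16 to 3.46 times the lowest in Mrc1Cre Xpr1fl/fl samples and 2.75 to 2.84 times in controls, and the lowest was ARPC4 in all 9 samples. The level of *Actr3* per kilobase was 2.14 to 2.36 times that of *Arpc3* against 1.46 to 1.69 times in controls, and 3.15 to 3.46 times that of *Arpc4* against 2.45 to 2.75 times. Against *Actr2* the ratio was 2.31 to 2.56 and 2.30 to 2.72, and against *Arpc1b* it was 1.24 to 1.33 and 1.17 to 1.51, so that these ranges overlapped. Those against *Arpc2* overlapped as well (0.984 to 1.06 and 0.874 to 1.03), whereas those against *Arpc5* did not (1.73 to 1.89 and 1.59 to 1.72). Since *Actr3* was chosen for its rise, these ratios are a description and were not tested.

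**Figure D3:**
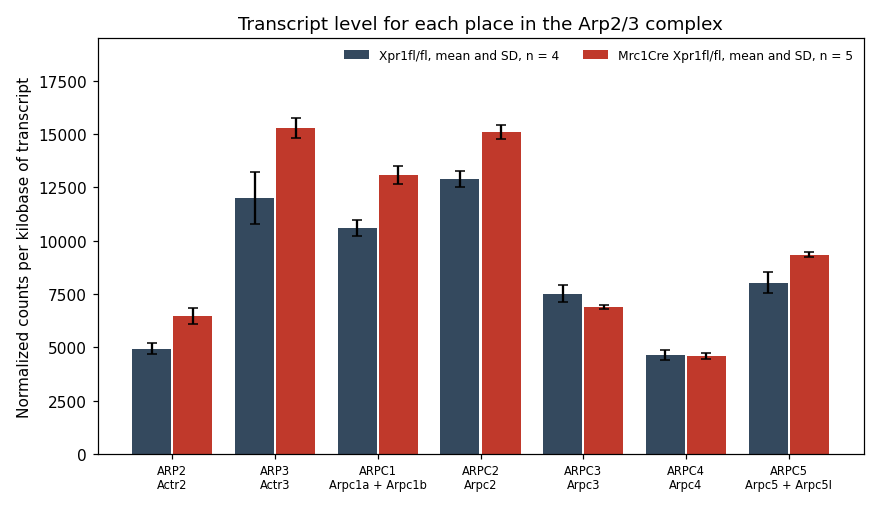
Normalized counts per kilobase of transcript (vertical axis, from 0) for each place in the Arp2/3 complex, as the mean and SD of the control (dark) and Mrc1Cre Xpr1fl/fl (red) samples. ARP3, ARPC2 and ARPC1 are the highest in both genotypes, and ARPC3 and ARPC4 are the places where the red bar is not above the dark bar.

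A ratio of paralogs within a sample does not move with the scaling of that sample, and 3 such ratios were tested with an exact permutation of the genotypes, two-sided. The log2 ratio of *Arpc1b* to *Arpc1a* was 3.36, 3.44, 3.33, 3.16 and 3.26 in Mrc1Cre Xpr1fl/fl samples 1 to 5 and 2.67, 2.97, 2.82 and 2.80 in controls. It was higher by 0.50 in the samples with the deletion and the genotypes did not overlap (exact permutation p = 0.0159, the smallest this design allows, adjusted p = 0.0159 over the 3 ratios). The permutation took no account of the dates, and among the samples of the earliest date the difference was 0.44. Of single genes 34.1% did not overlap between the genotypes, and the share among ratios of genes was not examined. Per kilobase, *Arpc1b* made up 90.4 to 91.9% of ARPC1 transcripts in Mrc1Cre Xpr1fl/fl samples and 87.0 to 89.2% in controls.

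The log2 ratio of *Arpc5l* to *Arpc5* was -3.82, -3.93, -3.88, -3.91 and -3.89 in Mrc1Cre Xpr1fl/fl samples 1 to 5 and -3.80, -3.74, -3.76 and -3.67 in controls. The share of *Arpc5l* among ARPC5 transcripts per kilobase was thus 8.31 to 8.94% against 9.05 to 9.83%, a difference of -0.14 in the log2 ratio (exact permutation p = 0.0159, adjusted p = 0.0159). Among the samples of the earliest date the difference in this ratio was -0.13. The level of *Arpc5l* alone was not called, as given above.

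*Actg1*, which encodes the other cytoplasmic actin, had 85392 to 92344 normalized counts in Mrc1Cre Xpr1fl/fl samples and 73169 to 82462 in controls, and rose by 0.19 on the log2 scale (limma, adjusted p = 0.027). The log2 ratio of *Actb* to *Actg1* was 1.48, 1.53, 1.46, 1.46 and 1.58 in Mrc1Cre Xpr1fl/fl samples 1 to 5 against 1.65, 1.60, 1.62 and 1.61 in controls, a difference of -0.12 (exact permutation p = 0.0159, adjusted p = 0.0159). Sample 5, the Mrc1Cre Xpr1fl/fl sample of the earliest date, was the nearest to the controls, and among the samples of that date the difference was -0.04. Per kilobase *Actb* made up 75.9 to 77.4% of both actins against 77.6 to 78.3%. In the longest match between transcripts, *Actb* shares 91.1% of 337 bases with *Actg1* and 90.6% of 1347 bases with *Lrrc58*. Shorter matches between these genes were not counted. *Lrrc58* itself was called higher, with 2328 to 2985 normalized counts against 1875 to 1999 (limma, adjusted p = 0.000221).

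**Figure D4:**
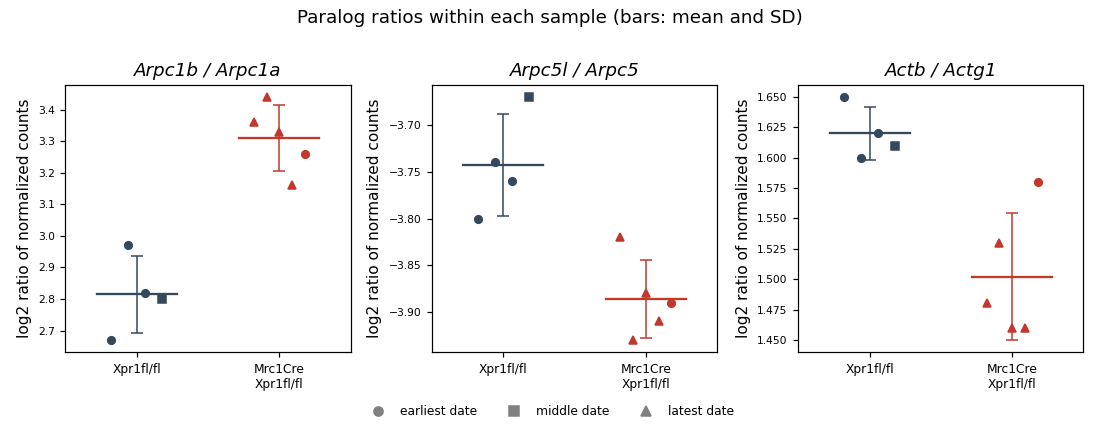
Log2 ratio of normalized counts of *Arpc1b* to *Arpc1a*, *Arpc5l* to *Arpc5* and *Actb* to *Actg1* in each sample (points, shaped by date), with the mean and SD of each genotype as bars. The axes do not start at 0 and differ in range: the means differ by 0.50 in the first panel, by -0.14 in the second and by -0.12 in the third, where the Mrc1Cre Xpr1fl/fl sample of the earliest date is at 1.58.

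*Arpc1a* (chr5:145020600-145045572) and *Arpc1b* (chr5:145051025-145067515) lie side by side on the plus strand of chromosome 5 of GRCm39 and moved in opposite directions. The 100 bases before the annotated start of each canonical transcript are given to show how far the start regions of this pair differ, with the motif GGGCGG, on either strand, in capitals.

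Arpc1b, chr5:145050925-145051024, plus strand: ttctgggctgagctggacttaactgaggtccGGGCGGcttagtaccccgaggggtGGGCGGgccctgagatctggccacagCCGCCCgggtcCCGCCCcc

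Arpc1a, chr5:145020507-145020606, plus strand: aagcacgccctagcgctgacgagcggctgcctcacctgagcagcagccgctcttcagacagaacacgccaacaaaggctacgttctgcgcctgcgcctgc

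In the window from 250 bases before to 50 after the start, GGGCGG was found 7 times in *Arpc1b*, 5 times in *Actr2*, 3 times each in *Arpc2* and *Arpc5*, and 2 times each in *Arpc3* and *Arpc5l*. It was not found in the windows of *Actr3*, *Arpc1a* or *Arpc4*, and 54.3% of the 13584 promoters read in the same way hold it. The 4 members called higher all hold it, as does *Arpc3*, which was called lower.

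Serum response factor (SRF) binds the CArG box and controls many genes of actin and its partners, and this motif was searched in the same windows. Of the 9 subunit genes only *Arpc4*, 235 bases before the start, held it, against 1.32% of all promoters. The stretch that holds it is shown with the CArG box in capitals.

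Arpc4, chr6:113354809-113354908, plus strand: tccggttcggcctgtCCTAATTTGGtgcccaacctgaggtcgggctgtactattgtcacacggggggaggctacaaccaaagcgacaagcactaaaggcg

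*Arpc4* was among the members that were not called. Of the other motifs searched on both strands in the subunit genes, CCAAT was found once each in *Actr2*, *Actr3* and *Arpc5* (39.9% of all promoters), TATAAA in none (8.97%), and GGAAGTG in *Arpc2*, *Arpc3*, *Arpc4* and *Arpc5l* (12.8%). These matches describe letters in the sequence and say nothing of whether a factor was bound.

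Exons of 3 members overlap exons of other genes in the table. *Arpc1b* overlaps *Pdap1* on the opposite strand, *Arpc4* overlaps *Ttll3* on its own strand and *Tada3* on the opposite one, and *Arpc5l* overlaps *Golga1* and *Rpl35* on the opposite strand. None of these neighbours was called (limma, adjusted p = 0.0835 for *Pdap1* and 0.736 to 0.982 for the others).

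The pattern of *Actr3* over the 9 samples was nearest to that of *Sec61b* (Pearson's r = 0.987), *Myd88* (0.984), *Rbm14* (0.983), *Arl6ip5* (0.983) and *Adora2b* (0.983), out of 11390 genes that averaged 50 or more normalized counts. Among the members, *Arpc5* (0.98), *Arpc2* (0.95), *Actr2* (0.92) and *Arpc1b* (0.87) were the most like it, and *Arpc3* (-0.54) and *Arpc1a* (-0.69) the least. These values contain the difference between the genotypes. With the mean of each genotype subtracted, *Hnrnpa3* (0.992), *Ttc1* (0.981), *Rbis* (0.979), *Btf3* (0.966) and *Abracl* (0.963) were nearest. Among the members, *Arpc5* (0.91), *Arpc4* (0.80), *Arpc2* (0.70) and *Arpc3* (0.69) were then the most like *Actr3*. *Actb* (0.58), *Actr2* (0.54) and *Arpc5l* (0.54) came next, and *Arpc1a* (0.12) and *Arpc1b* (0.07) were the least like it. The 9 samples share their scaling and their dates, and the correlations are a description without a test.

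The genes that act on the complex and on actin were followed in 8 lists. Their counts are read beside the 21.5% of all genes called higher and the 21.6% called lower. Counts from other fits are read beside the shares of those fits. These were 4.24% higher and 4.54% lower with date as a term, and 14.6% and 27.5% at the 75th percentile scaling. Of 25 nucleation promoting factor genes tested, which switch on the Arp2/3 complex, 10 were called higher and 7 lower, with a median log2 fold change of 0.09. *Cyfip2*, a subunit of the WAVE complex, had 2009 to 2283 normalized counts against 805.6 to 1529 in controls (log2 fold change 0.90, limma, adjusted p = 0.000498). *Washc4*, a subunit of the WASH complex on endosomes, rose by 0.42 (limma, adjusted p = 0.00283). The largest falls in this list were those of *Wasf1*, a WAVE protein best known from neurons, with 9.8 to 37.4 against 93.8 to 225.1 normalized counts, and of *Nckap1*, the broadly expressed WAVE subunit, with 101.8 to 150.1 against 232.6 to 318.8. With date as a term, 1 gene of the list was called higher and 3 lower, and at the 75th percentile scaling, which moved the median of all genes to -0.08, 7 were higher and 9 lower.

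Of 11 inhibitors and debranching factors, which oppose the complex or take its branches apart, 3 were called higher and 2 lower, with a median of -0.01. The counts were 3 and 5 at the 75th percentile scaling, and 2 and 1 with date as a term. The coronin genes *Coro2a* (3578 to 4949 against 2425 to 2803 normalized counts) and *Coro1a* (7407 to 8596 against 5596 to 6213) rose by 0.76 and 0.41 on the log2 scale (limma, adjusted p = 9.25e-05 and 0.000182). *Coro2b* fell by 1.41 from a low level, with 62.3 to 88.5 normalized counts against 155.9 to 241.7 (limma, adjusted p = 8.36e-05). Of 19 genes of actin monomer binding and filament turnover, 6 were called higher and 3 lower (median 0.04), against 5 and 7 at the 75th percentile scaling and 1 and 0 with date as a term. *Ssh1*, a phosphatase that activates cofilin, rose by 0.52 and the thymosin gene *Tmsb10* by 0.47, whereas *Limk2*, a kinase that inactivates cofilin, fell by 0.48 and *Dstn*, a relative of cofilin, fell by 0.41 (limma, adjusted p = 0.00176, 0.00221, 0.00497 and 0.00217).

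Of 15 capping and severing genes tested, 6 were called higher and 3 lower (median 0.14), against 4 and 4 at the 75th percentile scaling. The fit with date as a term called 0 higher and 1 lower, with 4 and 3 at an unadjusted p under 0.05 by limma. *Capg*, the capping protein of macrophages, had 2602 to 3394 normalized counts against 1450 to 2133 (log2 fold change 0.79, limma, adjusted p = 0.000272), and gelsolin, *Gsn*, rose by 0.40. *Tmod1*, a capping protein of the red cell membrane skeleton, fell by 1.67 with the erythroid markers, whose own median log2 fold change was -1.84, and *Carmil1* fell by 1.06. In the list of 16 formin and Ena/VASP genes, which build unbranched filaments, 5 were called higher and 4 lower (median 0.03). At the 75th percentile scaling these counts were 4 and 5. The fit with date as a term called 1 higher and 0 lower, with 4 in each direction at an unadjusted p under 0.05 by limma. *Diaph2* rose by 0.66, and *Daam1* and *Fmnl2* fell by 0.44 and 0.38. *Enah* was also called higher, at 36.1 to 97.6 normalized counts against 9.9 to 44.9, which overlap.

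Of 10 other actins and actin-related proteins, 3 were called higher and 0 lower by limma, with 1 lower at an unadjusted p under 0.05 (median 0.04). With date as a term limma called 0 in either direction, with 1 higher and 0 lower at an unadjusted p under 0.05. Besides *Actg1*, these were *Actr1a*, the dynactin subunit, which rose by 0.21 (limma, adjusted p = 0.00293), and *Actr3b*, a paralog of *Actr3* near the limit of detection, with 12.9 to 33.5 normalized counts against 4.9 to 17.8.

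SRF, its coactivators and their cytoskeletal targets had the largest count, with 14 of 27 genes called higher and 6 lower (median 0.16). At the 75th percentile scaling 9 were higher and 6 lower. *Tpm4*, a tropomyosin, had 4016 to 4544 normalized counts against 2698 to 2770 (log2 fold change 0.65, limma, adjusted p = 6.79e-06), and *Myh9*, the heavy chain of non-muscle myosin, had 17070 to 23441 against 12695 to 14016 (0.64, limma, adjusted p = 0.00017). *Ccn1* fell by 2.08 and *Cnn3* fell by 1.43 in the same list (limma, adjusted p = 2.91e-05 and 8.38e-06). Of the stromal and smooth muscle markers 5 of 8 were lower too, not the smooth muscle genes *Acta2* and *Tagln*, and their most abundant gene *Col3a1* had 173.3 to 309.1 against 547.5 to 2111 normalized counts. With date as a term, 7 genes of the SRF list were called higher and 2 lower. That fit called 4.24% of all genes higher and 4.54% lower. The list of 15 chaperonin and prefoldin genes, which serve the folding of newly made actin, held their subunits and a chaperonin cofactor. Of these genes, 7 were called higher and 2 lower (median 0.15). The rises were led by *Cct7* (log2 fold change 0.38) and *Cct3* (0.27), and the falls by *Pfdn1* (-0.20) and *Vbp1* (-0.17). At the 75th percentile scaling the calls in this list became 2 higher and 4 lower. With date as a term limma called 0 of the list in either direction, with 3 higher and 0 lower at an unadjusted p under 0.05.

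**Figure D5:**
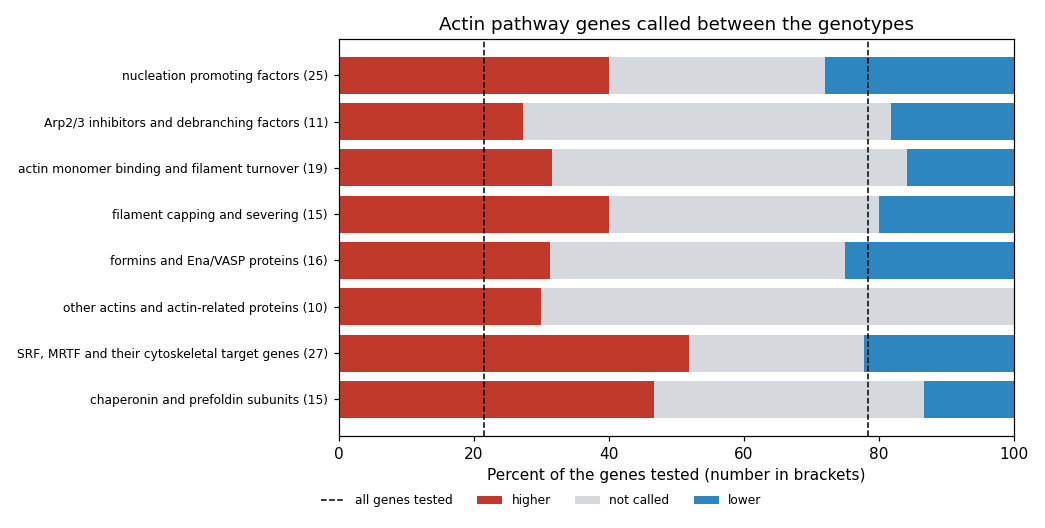
Percent of the genes tested in each actin pathway list (horizontal axis, number of genes in brackets) that were called higher (red), lower (blue) or not called (grey) in Mrc1Cre Xpr1fl/fl samples, with dashed lines for the shares over all genes tested. In this fit the red share reaches beyond the dashed line at 21.5% in every list. With date as a term, not every list was above that fit's share of 4.24%. At the 75th percentile scaling the chaperonin list was not above that fit's share of 14.6%.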

How the data were processed

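Macrophage RNA was extracted per the labels with a column kit, and 45 ng per sample went into a stranded mRNA library. According to the study's methods, the authors ran salmon against GRCm39, imported its estimates with tximport and normalized them with DESeq2. What the authors deposited is thus a signal for each gene, the normalized counts, without negative values. Tool versions, the filter on low genes and the strand setting of the quantification are not given in the sources used here. Because salmon splits reads between similar transcripts, genes with near-identical copies are uncertain. The columns were matched to samples by name, and 0 columns belonged to no sample.

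Whole reads could not be recovered, so no count test was run. The genotypes were compared with limma 3.58.1 in R 4.3.3 (lmFit, then eBayes with a trend), using log2(normalized count + 1). A gene entered the fit if 4 or more samples reached 10 normalized counts, which 13594 genes did. Adjustment was by Benjamini-Hochberg over these genes, with a threshold of 0.05 and genotype as the only term, and a fold change on this scale understates that of low genes. Ratios of paralogs were tested by exact permutation in scipy 1.17.1. The scripts were tested on simulated data. Positions, transcript lengths and promoter sequences come from GRCm39 and GENCODE release 39 for mouse, and shared sequence of at least 100 bases and 90% identity was found with blastn 2.17.0. Promoters of the subunit genes were read at 250 bases before to 50 after the start, with motif matches on both strands and none overlapping another in the stretches shown.

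The members, gene lists and tests were chosen with earlier results of these data known, and no member, list or test is independent of them. Some of the lists and sequences examined are not reported here. The genes named were the members, *Gm15899*, *Xpr1*, the 2 called genes that rose most and the 2 that fell most in each actin list among those averaging 50 or more normalized counts, and the 5 genes most like *Actr3* by Pearson's r, with and without the genotype means. The most abundant gene was named for the macrophage, monocyte and stromal marker lists and not for the others. *Actr3-ps*, *Actr3b*, *Lrrc58*, *Gp1bb*, *Acta2*, *Tagln*, the neighbours with overlapping exons and the genes in the other observations were named after their values were seen. Alternatives were pseudocounts of 0.5 and 10, no filter and a filter of 50, scaling to the 75th percentile or by quantiles, limma with no trend, robust fitting or array weights, the date as a term, blocking on the replicate number, and dropping each sample. Adding *Gm15899* with *Actr3-ps* to *Actr3* was chosen after seeing the data. Plots used matplotlib 3.10.9 under Python 3.11.15.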

Additional observations from a re-analysis of the deposited data

Results flagged for a closer look

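Of 28 groups of samples compared for 14 genes and ratios, 1 held a sample far from the rest, where chance alone would give about 1.4. *Gm15899*, the pseudogene whose sequence lies within *Actr3*, had 32.67 normalized counts in Xpr1fl/fl sample 4 and was listed at 0 in the other 3 controls. *Actr3* itself, at 32891 normalized counts in that sample, lay within the range of the other controls.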

How the results depend on the processing

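The 4 calls of a rise (*Actr2*, *Arpc1b*, *Arpc2* and *Arpc5*) were 1 with date as a term (*Arpc1b*). The 2 calls of a fall (*Arpc1a* and *Arpc3*) were 0 with limma without trend, 1 with robust fitting (*Arpc1a*), 0 with date as a term, and 0 to 2 when samples were left out 1 at a time, with only the fit without Mrc1Cre Xpr1fl/fl sample 5 keeping both. The difference in the log2 ratio of *Actb* to *Actg1* was -0.04 within the earliest date. At an unadjusted p under 0.05, limma had 4 higher and 0 lower with date as a term, 2 lower without trend, and 1 to 2 lower when samples were left out. The cause of these losses was not tested, and with date as a term each estimate rests only on Mrc1Cre Xpr1fl/fl sample 5 against Xpr1fl/fl samples 1 to 3. No called member or ratio changed sign, and the log2 difference of *Actr3* ranged from 0.27 to 0.41 over all alternatives. The replicate numbers did not pair the samples, since the correlations of samples with the same number were -0.033, 0.147, -0.011 and -0.031, and only number 2 correlated best with its own number. With the replicate block, 4 members were called higher and 1 lower (*Arpc1a*), and the ratios differed by 0.51 (*Arpc1b* to *Arpc1a*), -0.14 (*Arpc5l* to *Arpc5*) and -0.14 (*Actb* to *Actg1*). Without counts the depth behind each value is unknown, and no interval for counting error can be given.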

Other observations

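Within the lists of actin regulators, some related genes that fill the same role moved in opposite directions. These pairs were picked out after their values were seen, and how often such pairs differ was not tested. In the WAVE complex, *Nckap1l*, the form of blood cells, had a mean of 17700 normalized counts over the 9 samples and rose by 0.22 on the log2 scale (limma, adjusted p = 0.00489), while its broadly expressed relative *Nckap1* fell by 1.12 from a mean of 192.5 (limma, adjusted p = 0.000123). Among cortactin-like proteins, *Hcls1* of blood cells rose by 0.24 and *Cttn* fell by 0.47 (limma, adjusted p = 0.00443 and 0.00066). In the WASP family, *Was* of blood cells rose by 0.17 and *Wasl* fell by 0.25 (limma, adjusted p = 0.015 and 0.0123). A further WAVE pair went the other way, as the broadly expressed *Abi1* rose by 0.28 and *Abi3* fell by 0.18 (limma, adjusted p = 0.00287 and 0.041). In the same samples 5 of 8 stromal, 6 of 8 endothelial and 12 of 12 erythroid markers were lower, and their part in these differences was not tested.

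*Srf* itself rose by 0.52 (limma, adjusted p = 0.000297), as did its coactivator *Mrtfb*, by 0.50 (limma, adjusted p = 0.0119), whereas *Mrtfa* was at 0.14 and not called (limma, adjusted p = 0.108). Among binders of actin monomers, *Pfn1*, or profilin, and *Tmsb4x*, or thymosin beta 4, did not pass the test, at log2 fold changes of -0.13 and -0.16 (limma, adjusted p = 0.159 and 0.129), while *Cap1* rose by 0.30 (limma, adjusted p = 0.00027). *Cfl1*, or cofilin, which disassembles filaments, rose by 0.21 (limma, adjusted p = 0.00661).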
